A study of Mus musculus with 9 samples.

Results

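Fasl, Fas, Tnfsf10, Tnfrsf10b, Casp8 and Cflar are the death ligands, death receptors and first intracellular partners through which natural killer (NK) cells can kill a target, or be killed, without granzymes. These 6 genes were picked by symbol from the 16876 genes of the deposited table, and all 6 were among the 12212 genes that passed a filter on low counts. They were measured in cultured mouse NK cells in 3 groups of 3 libraries. Cells of the SIS3 + TGF-β1 group (SIS in the labels) were kept for 3 h in 10 µM SIS3 and then for 3 h in 5 ng/mL TGF-β1. Those of the TGF-β1 group (T in the labels) were kept for 3 h in the same dose of TGF-β1, and the Ctrl group was untreated. SIS3 is an inhibitor of Smad3, a transcription factor that carries the TGF-β signal to the nucleus. All groups were grown from C57BL/6 femoral marrow, for 4 days with IL-7, Flt3L, SCF and IL-15 and then for about a week with IL-15 and IL-2. The sample titles and treatment tags of the SIS group name SIS3 alone, while its treatment protocol and the series' design text give SIS3 and then TGF-β1; the latter reading is used throughout, and every comparison with this group rests on it. On that reading no group had SIS3 without TGF-β1, and the labels name no solvent for Ctrl. Nothing in the labels ties a replicate to a mouse or culture of its own, so each p-value reflects library-to-library spread, which may be technical.

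Fas ligand, the product of Fasl, sits on the surface of cytotoxic lymphocytes and binds the receptor Fas. TRAIL, the product of Tnfsf10, binds DR5, the product of Tnfrsf10b, which in the mouse is the TRAIL receptor with a death domain. A bound receptor gathers the adaptor FADD and the protease caspase-8 (Casp8), which activates itself and then further proteases. The product of Cflar, cFLIP, resembles caspase-8 but lacks its protease activity, and it competes for places in the same complex.

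In GRCm38.p6, RefSeq places Fasl (Entrez 14103) at chr1:161780691-161788495, Fas (14102) at chr19:34290647-34327775 and Tnfsf10 (22035) at chr3:27317077-27339665. Tnfrsf10b (21933) lies at chr14:69767472-69784411, Casp8 (12370) at chr1:58795233-58847503 and Cflar (12633) at chr1:58711311-58758884.

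The libraries held 15714973 to 16718673 expected counts. The 12 NK markers, led by the granzyme gene Gzmb, summed to 14967 to 15219 CPM (counts scaled to library size) in SIS3 + TGF-β1 libraries, 13336 to 14590 CPM in TGF-β1 libraries and 17909 to 18883 CPM in Ctrl libraries. Of these 12, none rose and 8 fell in TGF-β1 against Ctrl, 6 rose and 3 fell in SIS3 + TGF-β1 against TGF-β1, and 2 rose and 7 fell in SIS3 + TGF-β1 against Ctrl, and the part of this shift in the results on the 6 genes was not tested. The 12 macrophage and monocyte markers summed to 793 to 1339 CPM in SIS3 + TGF-β1 libraries, 710 to 1124 CPM in TGF-β1 libraries and 995 to 1338 CPM in Ctrl libraries, and none of them was under 1 CPM. Over all libraries, dendritic cell markers summed to 461 to 904 CPM and mast cell and basophil markers to 451 to 529 CPM. The neutrophil markers present summed to 220 to 298 CPM, of which Ctsg made up 98.0%. The T cell markers present summed to only 8.05 to 22.4 CPM, and the 5 B cell markers present were each under 1 CPM in every library. TGF-β1 replicate 3 stood apart on the second principal component (-30.4, against -15.2 and -17.7 in its group) and was lowest of all libraries in erythroid and megakaryocyte markers (7.66 CPM, against 29.2 to 46.3 CPM in the other 8). In bulk RNA, fewer cells of a type and less RNA per cell cannot be told apart.

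The 300 bases around the start of 3 of the 6 genes are shown because these genes make the different patterns described here. Tnfsf10 was higher with TGF-β1 than in Ctrl, and Fas was higher than Ctrl when both agents were given. Casp8 was lower in the SIS3 + TGF-β1 group than in TGF-β1 or Ctrl. Each window runs 5′ to 3′ on the gene's own strand, from 250 bases before the start to 50 after it, from RefSeq in GRCm38.p6. Capitals mark letters that match any of 4 short motifs on either strand: CAGAC (the SMAD box), TGANTCA (AP-1), AANNGAAA (interferon regulatory factors) and TGATGNAA (CHOP and ATF4).
Tnfsf10, chr3:27316827-27317126, plus strand: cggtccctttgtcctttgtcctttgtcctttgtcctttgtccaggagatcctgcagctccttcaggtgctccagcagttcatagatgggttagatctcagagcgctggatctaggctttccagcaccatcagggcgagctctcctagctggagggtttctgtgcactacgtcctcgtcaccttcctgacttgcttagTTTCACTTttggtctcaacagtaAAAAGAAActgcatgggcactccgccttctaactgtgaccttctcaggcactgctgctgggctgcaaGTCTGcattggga
Fas, chr19:34290409-34290708, plus strand: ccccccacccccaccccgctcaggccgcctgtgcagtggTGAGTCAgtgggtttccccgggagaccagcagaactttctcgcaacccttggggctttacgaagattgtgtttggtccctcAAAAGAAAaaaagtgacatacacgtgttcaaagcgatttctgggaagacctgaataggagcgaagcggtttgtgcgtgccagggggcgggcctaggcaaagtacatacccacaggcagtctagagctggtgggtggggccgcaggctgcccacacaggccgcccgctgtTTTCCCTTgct
Casp8, chr1:58802252-58802551, plus strand: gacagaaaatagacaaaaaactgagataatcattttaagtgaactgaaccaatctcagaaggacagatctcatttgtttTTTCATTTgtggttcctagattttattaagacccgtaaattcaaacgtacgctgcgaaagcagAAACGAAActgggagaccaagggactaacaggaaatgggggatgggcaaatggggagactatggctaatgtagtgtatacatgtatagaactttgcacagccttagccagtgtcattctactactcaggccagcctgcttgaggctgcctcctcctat

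The Tnfsf10 window held 2 matches to AANNGAAA and 1 to the SMAD box, written GTCTG on this strand, 37 bases after the start site. The Fas window held 1 match to TGANTCA and 2 to AANNGAAA. The Casp8 window, which lies inside the annotated gene and belongs to 1 of its starts, held 2 matches to AANNGAAA. Of the members not shown, Cflar held 3 matches to the SMAD box and 1 to AANNGAAA, and Fasl held no match to the 4 motifs. Tnfrsf10b had no window and was not searched for any motif. These letters are common: of 32851 windows of the same length, 49.6% held CAGAC, 23.9% AANNGAAA, 7.81% TGANTCA and 3.97% TGATGNAA. The matches describe the sequence only, and no binding was measured.

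Per kilobase of exon, Fasl was the most abundant of the 6 transcripts in every group and the TRAIL and Fas transcripts the least. Fasl stood at 45.7 ± 1.96 CPM per kb in SIS3 + TGF-β1 cells, 53.6 ± 2.91 in TGF-β1 cells and 55.5 ± 2.20 in Ctrl cells (SD, n = 3 each). Casp8 followed at 22.6 ± 0.804, 30.4 ± 1.25 and 30.5 ± 1.05 CPM per kb in the same groups, and Cflar at 15.8 ± 0.389, 16.9 ± 0.333 and 16.8 ± 0.311. The receptor gene Tnfrsf10b came next at 6.83 ± 0.208, 5.71 ± 0.406 and 6.04 ± 0.637 CPM per kb. The libraries of neighbours in this order did not overlap within any group down to Tnfrsf10b. The last places were not told apart in TGF-β1 cells, where Fas stood at 2.20 ± 0.776 and Tnfsf10 at 2.53 ± 0.621 CPM per kb, and in Ctrl cells, where Fas stood at 1.57 ± 0.0588 and Tnfsf10 at 1.73 ± 0.158. In SIS3 + TGF-β1 cells Fas (2.93 ± 0.549) lay above Tnfsf10 (1.76 ± 0.247). These levels rest on exon lengths from GENCODE M21, from 1796 bases for Fas to 7870 for Cflar, and not on the authors' own annotation; with the longest transcript in place of all exons, Fas (1.91) came before Tnfsf10 (1.83) in Ctrl cells.

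**Figure D1:**
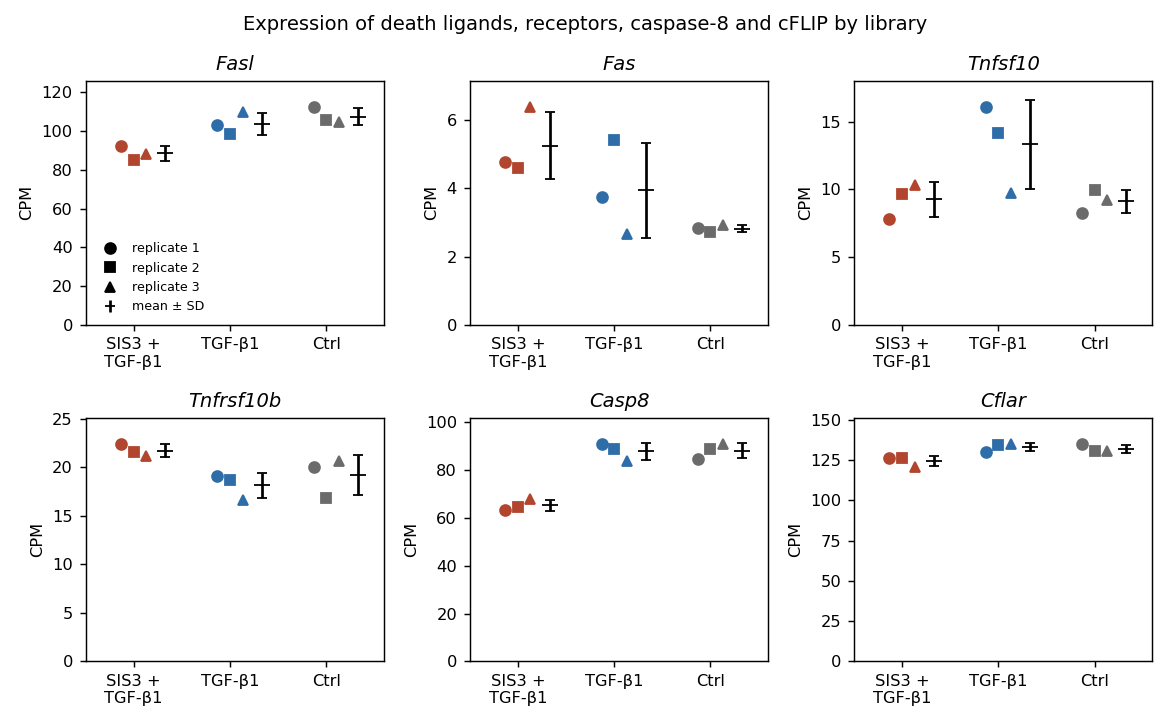
CPM of the 6 genes in each library, by group, with the mean and SD of 3 libraries beside the points and each axis starting at 0. Casp8 and Fasl are lowest in all 3 SIS3 + TGF-β1 libraries, Fas is lowest and tightest in Ctrl apart from TGF-β1 replicate 3, and Tnfsf10 is high in TGF-β1 replicates 1 and 2.

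TGF-β1 against Ctrl asked what 3 h of the cytokine changed. Of the 6 genes, Tnfsf10 rose, none fell and 5 did not pass the test (an edgeR quasi-likelihood adjusted p below 0.05 over all 12212 genes). The test called 34.3% of all genes tested in this comparison (17.9% up and 16.4% down), so 1 of 6 is no larger a share than the background. The median log2 change of the 6 was 0.0032, against -0.0036 over all genes tested. No member had TGF-β1 libraries that were all above or all below the Ctrl libraries, which was so for 45.0% of all genes. The split of all calls was 52.2% up, and 41.3% up with upper-quartile factors.

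The TRAIL gene Tnfsf10 stood at 16.1, 14.2 and 9.72 CPM in the TGF-β1 libraries, against 8.26, 9.93 and 9.19 CPM in the Ctrl libraries. TGF-β1 replicates 1 and 2 were above all Ctrl libraries, and TGF-β1 replicate 3 lay among them. The log2 change was 0.55 ± 0.16 (SE, adjusted p = 0.0126), a 1.47-fold rise with a 95% interval of 1.16 to 1.85. The call ended without TGF-β1 replicate 1 (log2 0.40, adjusted p = 0.0850) and without Ctrl replicate 1 (log2 0.49, adjusted p = 0.0558). T cell markers in the TGF-β1 libraries ran in the same order as Tnfsf10, at 22.4, 18.4 and 8.05 CPM, against 15.8, 17.2 and 15.9 CPM in Ctrl. Erythroid and megakaryocyte markers ran in that order too, at 38.0, 30.4 and 7.66 CPM, as did B cell markers, at 1.72, 0.915 and 0.666 CPM. Sums of the remaining marker lists did not. Of the 7 T cell markers present 1 rose and none fell between these groups, and the pan-T gene Cd3e was at 0.466 to 2.52 CPM over all libraries. The part of any of these cells in the Tnfsf10 result was not tested.

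The receptor gene Fas stood at 3.76, 5.43 and 2.66 CPM in the TGF-β1 libraries, against 2.84, 2.71 and 2.92 CPM in the Ctrl libraries. The Ctrl libraries were close together and the TGF-β1 libraries reached both below and above them. The log2 value was 0.49 ± 0.23 and did not pass (adjusted p = 0.123), with an interval of -0.01 to 0.99, and it ran from 0.19 to 0.70 as single libraries were left out. It passed without TGF-β1 replicate 3 (log2 0.70, adjusted p = 0.0165). Fas was a low gene here, with 40 to 89 expected counts per TGF-β1 library and 44 to 48 per Ctrl library.

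The other 4 genes did not pass in this comparison. Casp8 stood at 91.1, 88.7 and 83.9 CPM with TGF-β1, against 84.9, 89.0 and 90.9 CPM in Ctrl, and its interval ran from -0.10 to 0.09 on the log2 scale. Cflar stood at 130, 134 and 135 CPM with TGF-β1, against 135, 130 and 131 CPM in Ctrl, with an interval of -0.06 to 0.09. Both sets of libraries overlapped throughout, and the sign of the mean difference was not stable in either gene across scalings or left-out libraries. Fasl (103, 98.5 and 110 CPM with TGF-β1, against 112, 106 and 105 CPM in Ctrl) had an interval of -0.15 to 0.05, and Tnfrsf10b (18.2 ± 1.29 CPM with TGF-β1 and 19.2 ± 2.02 CPM in Ctrl; SD, n = 3 each) one of -0.26 to 0.10.

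SIS3 + TGF-β1 against TGF-β1 compared cells that all had the cytokine, with or without the inhibitor before it, and is called the SIS3 step here. No 3 h of incubation before the cytokine is given for the TGF-β1 group, so SIS3 and that added time cannot be told apart. Of the 6 genes, Tnfrsf10b rose, Casp8, Fasl, Tnfsf10 and Cflar fell, and Fas did not pass. The test called 41.8% of all genes (21.2% up and 20.6% down), against 5 of these 6. The median log2 change of the 6 was -0.16, against 0.01 over all genes tested, and the libraries did not overlap between the groups for 4 of the 6, against 51.4% of all genes. The split of all calls was 50.6% up, and 71.1% up with no scaling factors. This comparison shares its TGF-β1 libraries with TGF-β1 against Ctrl.

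Casp8, the initiator caspase, had the smallest p of the members. It stood at 63.5, 64.7 and 68.0 CPM in SIS3 + TGF-β1 libraries, against 91.1, 88.7 and 83.9 CPM in TGF-β1 libraries. All 3 SIS3 + TGF-β1 libraries lay below all TGF-β1 and all Ctrl libraries. The log2 change was -0.43 ± 0.05 (adjusted p = 2.49e-06), which puts Casp8 at 0.744 of its TGF-β1 level with an interval of 0.695 to 0.795. The fall passed in all 18 alternatives run, at log2 values from -0.46 to -0.34.

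Cflar stood at 126, 126 and 121 CPM in SIS3 + TGF-β1 libraries, against 130, 134 and 135 CPM in TGF-β1 libraries. The groups did not overlap, yet the difference was small: log2 -0.10 ± 0.04 (adjusted p = 0.0368), or 0.934 of the TGF-β1 level. It missed the threshold in 9 of 18 alternatives, among them DESeq2 (adjusted p = 0.0573), no filter on low counts (0.0589), no scaling factors (log2 -0.02, 0.749) and the fits without TGF-β1 replicate 2 (0.0929), TGF-β1 replicate 3 (0.0956) and SIS3 + TGF-β1 replicates 1 (0.0604), 2 (0.0543) or 3 (0.128). The counts are per gene, so the long and short forms of cFLIP, which differ in what they do to caspase-8, were not separated.

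Within each library, the ratio of Cflar to Casp8 counts needs no scaling factor. It was 1.98, 1.95 and 1.78 in the SIS3 + TGF-β1 libraries, 1.43, 1.51 and 1.61 in the TGF-β1 libraries and 1.59, 1.47 and 1.44 in the Ctrl libraries. All SIS3 + TGF-β1 libraries lay above all others. The mean was 1.90 ± 0.112 in SIS3 + TGF-β1 cells and 1.52 ± 0.0900 in TGF-β1 cells (SD, n = 3 each), a log2 difference of 0.33 ± 0.07 (SE), and it was 1.50 ± 0.0793 in Ctrl cells. The two-sided exact permutation p was 0.10 for SIS3 + TGF-β1 against TGF-β1 and 0.10 against Ctrl, the smallest that 3 against 3 libraries allow, and 0.80 for TGF-β1 against Ctrl. The ratio is of counts, not per length, and so compares groups and not the amounts of the transcripts. It is made of the same counts as the changes given above and is not a separate result. At the SIS3 step those were log2 -0.43 for Casp8 and -0.10 for Cflar. The fall of Casp8 raised the ratio, and the smaller fall of Cflar offset part of that rise.

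**Figure D2:**
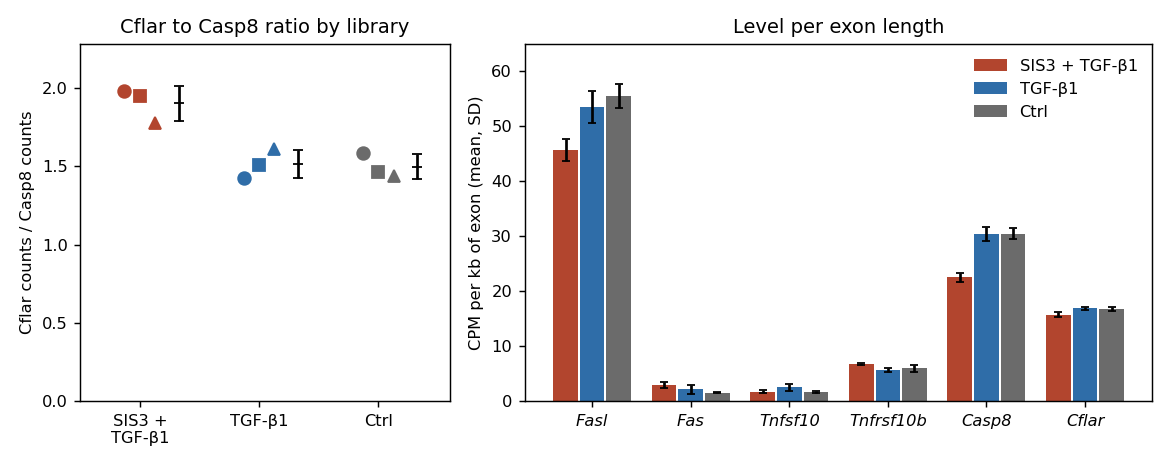
Left, Cflar counts divided by Casp8 counts in each library with the mean and SD per group; right, mean CPM per kb of exon with SD for each gene and group (n = 3). The SIS3 + TGF-β1 libraries have ratios of 1.78 to 1.98 against 1.43 to 1.61 in the other 6 libraries, and Fasl is the tallest bar in each group.

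Both ligands fell at this step. Fasl stood at 92.5, 85.0 and 88.0 CPM in SIS3 + TGF-β1 libraries, against 103, 98.5 and 110 CPM in TGF-β1 libraries, a log2 change of -0.23 ± 0.05 (adjusted p = 0.00127). Its groups did not overlap, and the fall passed in all 18 alternatives. Tnfsf10 stood at 7.82, 9.65 and 10.3 CPM in SIS3 + TGF-β1 libraries, against 16.1, 14.2 and 9.72 CPM in TGF-β1 libraries, a log2 change of -0.53 ± 0.16 (adjusted p = 0.0129). TGF-β1 replicate 3 again lay inside the range of the SIS3 + TGF-β1 libraries, and the call ended without TGF-β1 replicate 1 (log2 -0.38, adjusted p = 0.0855) and without SIS3 + TGF-β1 replicate 1 (log2 -0.42, adjusted p = 0.0652). T cell markers summed to 12.1, 13.4 and 14.5 CPM in SIS3 + TGF-β1 libraries, against 22.4, 18.4 and 8.05 CPM in TGF-β1 libraries. None of the 7 passed at this step, and their part in the Tnfsf10 result was not tested.

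Tnfrsf10b, which encodes DR5, stood at 22.4, 21.6 and 21.1 CPM in SIS3 + TGF-β1 libraries, against 19.1, 18.7 and 16.7 CPM in TGF-β1 libraries. The groups did not overlap, and the log2 change was 0.26 ± 0.08 (adjusted p = 0.0199), a call that ended with DESeq2 (adjusted p = 0.0821), without TGF-β1 replicate 3 (0.0740) and without SIS3 + TGF-β1 replicate 1 (0.0718). Rhobtb2, whose end lies 578 bases from the end of Tnfrsf10b on the other strand, rose as well (log2 0.34 ± 0.08, adjusted p = 0.00423). No source used here gives the strand setting of the counting, so reads that run past either end could not be assigned with certainty. Fas stood at 4.78, 4.59 and 6.39 CPM in SIS3 + TGF-β1 libraries, against 3.76, 5.43 and 2.66 CPM in TGF-β1 libraries. These overlap, and the log2 value of 0.40 ± 0.21 did not pass (adjusted p = 0.144), and single libraries moved it both ways. It passed without TGF-β1 replicate 2 (log2 0.70, adjusted p = 0.0167), and was smaller without TGF-β1 replicate 3 (log2 0.19, adjusted p = 0.460) and without SIS3 + TGF-β1 replicate 3 (log2 0.24, adjusted p = 0.440).

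**Figure D3:**
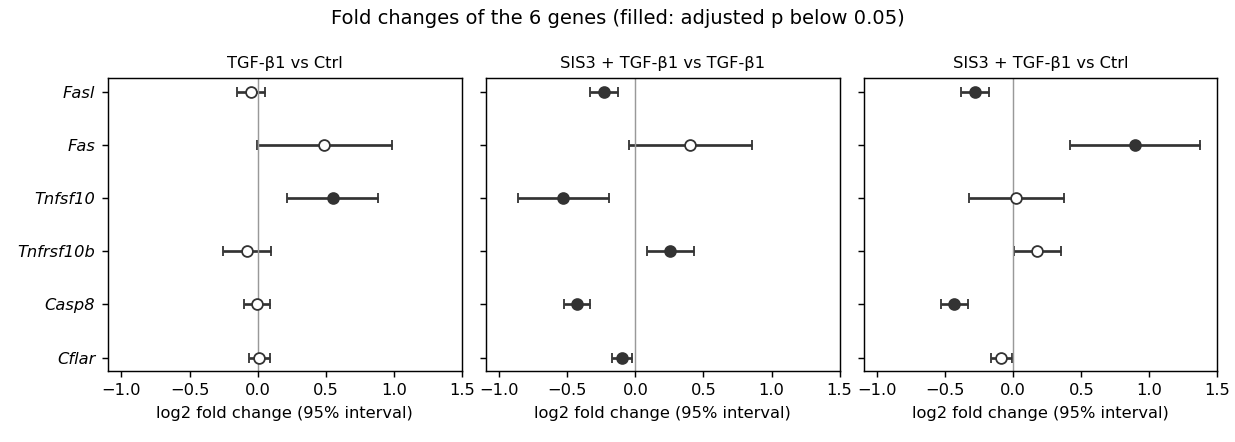
Log2 fold change of each gene (points) with its 95% interval in the 3 comparisons, filled where the adjusted p was below 0.05. With TGF-β1 alone only Tnfsf10 is filled, Casp8 and Fasl are filled below 0 in both comparisons with SIS3, and Fas has the widest intervals.

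SIS3 + TGF-β1 against Ctrl asked where both agents together left the cells. Fas rose, Casp8 and Fasl fell, and Tnfsf10, Tnfrsf10b and Cflar did not pass. The test called 53.9% of all genes (29.0% up and 24.9% down), so 3 of 6 is close to the background. The median log2 change of the 6 was -0.03, against 0.02 over all genes tested. For 5 of the 6, all but Tnfsf10, the groups kept apart, as they did for 61.1% of all genes. The comparison shares libraries with both others. The split of all calls was 53.8% up, and 63.8% up with no scaling factors.

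Fas had the largest change of the 6. It stood at 4.78, 4.59 and 6.39 CPM in SIS3 + TGF-β1 libraries, against 2.84, 2.71 and 2.92 CPM in Ctrl libraries, and averaged 5.25 ± 0.985 and 2.82 ± 0.106 CPM in those groups (SD, n = 3 each). The groups did not overlap, and the log2 change was 0.89 ± 0.22 (adjusted p = 0.00313), a 1.86-fold rise with an interval of 1.34 to 2.58. It passed in all 18 alternatives, at log2 values from 0.73 to 0.98. Macrophage and monocyte markers, whose cells also carry Fas, moved with Fas among the libraries of the treated groups. They summed to 858, 793 and 1339 CPM in SIS3 + TGF-β1 replicates 1, 2 and 3 and to 916, 1124 and 710 CPM in the TGF-β1 replicates, and in each group the library highest in these markers was highest in Fas. In Ctrl they summed to 995, 1199 and 1338 CPM while Fas stayed at 2.71 to 2.92 CPM. Of these 12 markers none rose and 3 fell in SIS3 + TGF-β1 against Ctrl. The dendritic cell marker sum ran in the order of Fas as well, at 563, 519 and 904 CPM with SIS3 + TGF-β1 and 608, 732 and 461 CPM with TGF-β1. Cd74 made up 57.3% of this sum. In both groups Cd74, H2-Aa, H2-Ab1, H2-Eb1 and the low gene Xcr1 ran in that order, while Zbtb46 and Itgax did not. Flt3, Siglech and Clec9a were under 1 CPM in every library. In Ctrl the dendritic cell markers summed to 573, 741 and 807 CPM. Of the 7 tested, 1 rose and 2 fell in SIS3 + TGF-β1 against Ctrl. The part of either kind of cell in the Fas result was not tested.

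**Figure D4:**
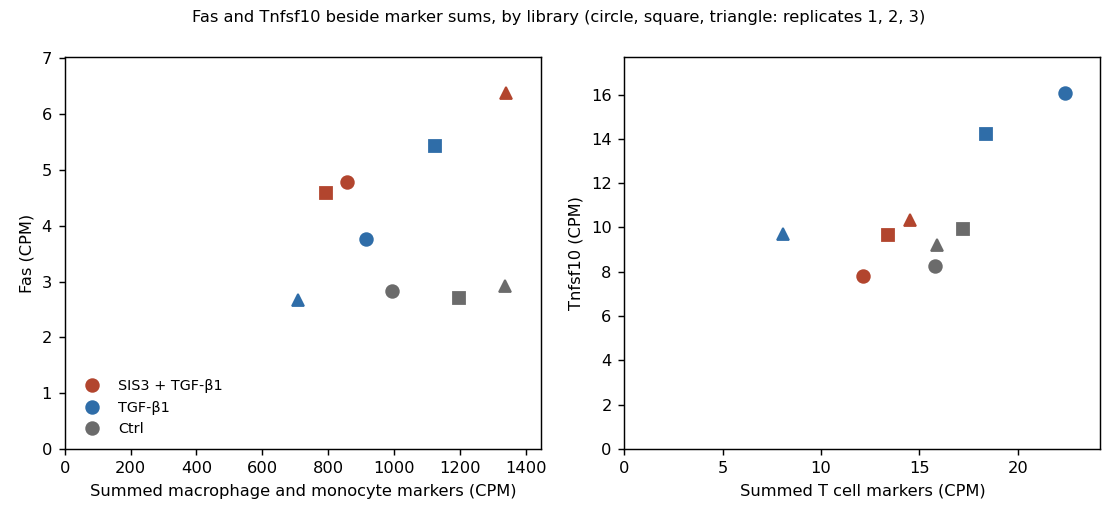
Left, Fas CPM against the summed CPM of 12 macrophage and monocyte markers; right, Tnfsf10 CPM against the summed CPM of the 7 T cell markers present, 1 point per library. Ctrl libraries keep Fas at 2.71 to 2.92 CPM across marker sums of 995 to 1338 CPM, and the 2 libraries highest in Tnfsf10 are the 2 highest in T cell markers.

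Casp8 and Fasl ended below Ctrl. Casp8 averaged 65.4 ± 2.32 CPM in SIS3 + TGF-β1 cells and 88.2 ± 3.04 CPM in Ctrl cells (log2 -0.43 ± 0.05, adjusted p = 8.46e-07), and Fasl averaged 88.5 ± 3.80 and 107 ± 4.26 CPM (log2 -0.28 ± 0.05, adjusted p = 0.000134). Neither gene had passed with TGF-β1 alone. Tnfsf10 averaged 9.27 ± 1.30 CPM in SIS3 + TGF-β1 cells and 9.13 ± 0.833 CPM in Ctrl cells, with an interval of the log2 difference of -0.33 to 0.37, which allows a level up to 1.29-fold that of Ctrl. Tnfrsf10b (log2 0.18 ± 0.08, adjusted p = 0.0765) and Cflar (log2 -0.09 ± 0.04, adjusted p = 0.0512) did not pass. Tnfrsf10b passed with no scaling factors (adjusted p = 0.0280) and without Ctrl replicate 3 (0.0443), but its log2 value was 0.09 without Ctrl replicate 2 (adjusted p = 0.348), and DESeq2 gave an adjusted p of 0.268. Cflar passed with upper-quartile factors (0.00717), DESeq2 size factors (0.0245), only the 2 groups in the fit (0.0260) and without TGF-β1 replicate 3 (0.0443), but its log2 value was -0.03 with no scaling factors (adjusted p = 0.532).

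Genes were also ranked by how closely their log2 CPM followed each member over the 9 libraries, which share group means, so the coefficients are descriptions. For Casp8 the closest were Fbxo33 (Pearson r = 0.99), the chaperone gene Hsp90ab1 (0.99) and Epn1 (0.99). For Fasl they were Gfod1 (0.98), the glycogen phosphorylase gene Pygb (0.98) and Cmtm7 (0.98), and for Cflar Srgap3 (0.98), Jarid2 (0.98) and Itfg1 (0.98). For Fas they were Plpp3 (0.98), the myelin gene Pmp22 (0.97) and Hhat (0.96), and for Tnfrsf10b Prxl2a (0.96), Helq (0.94) and Hpgds (0.94). Tnfsf10 had the weakest best match, Pcbp2 (0.91), followed by Sp110 (0.89) and Hgs (0.89). Among the members themselves, Fasl followed Casp8 (r = 0.83) and Cflar (r = 0.84) and ran opposite to Fas (r = -0.84), while Tnfsf10 and Fasl had r = 0.02. Casp8 and Cflar, which lie 36348 bases apart on chromosome 1 with no other protein-coding gene between them in RefSeq, had r = 0.75.

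The rest of the pathway was read from 7 lists that hold 82 genes with the 6 members, 78 of which were tested. Without the members, 22 of 72 rose and 11 fell with TGF-β1, 19 rose and 19 fell at the SIS3 step, and 28 rose and 20 fell in SIS3 + TGF-β1 against Ctrl. That is 45.8%, 52.8% and 66.7% past the test, against 34.3%, 41.8% and 53.9% of all genes tested. The lists were chosen with earlier results of these data known, so these shares are descriptions only.

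The 7 genes tested of the list called death ligands include Ltb, Tnfsf12 and Tnfsf14 beside ligands of death receptors. Of these 7, 3 rose and none fell with TGF-β1, with a median log2 change of 0.55. Besides Tnfsf10, the rises were those of Tnf, which encodes the cytokine TNF (21.2 ± 2.0 CPM with TGF-β1 and 13.4 ± 1.1 CPM in Ctrl, log2 0.67 ± 0.10, adjusted p = 8.2e-05), and Ltb, which encodes lymphotoxin β (log2 0.94 ± 0.12, adjusted p = 1.4e-05). At the SIS3 step none rose and 4 fell (median -0.26), among them Fasl, Tnf (log2 -0.46 ± 0.10, adjusted p = 0.0016) and Tnfsf10. Against Ctrl, SIS3 + TGF-β1 left Ltb higher (log2 0.59 ± 0.12) and the TWEAK gene Tnfsf12 (-0.33 ± 0.09), the LIGHT gene Tnfsf14 (-0.66 ± 0.24) and Fasl lower. Ltb stood at 46.3, 44.2 and 30.6 CPM in TGF-β1 libraries, against 21.3, 19.5 and 22.6 CPM in Ctrl libraries. As for Tnfsf10, the T cell markers ran in this order in the TGF-β1 libraries (22.4, 18.4 and 8.05 CPM). So did the erythroid and megakaryocyte markers (38.0, 30.4 and 7.66 CPM) and the B cell markers. The part of these cells in the Ltb result was not tested. Without TGF-β1 replicate 3, an alternative chosen after seeing the data, 4 of the 7 ligands rose and none fell with TGF-β1, none rose and 4 fell at the SIS3 step, and Ltb rose by a log2 value of 1.10 ± 0.07 with TGF-β1 (adjusted p = 2.5e-09). Tnfsf15 was filtered out as low, at a mean of 0.309 to 0.504 CPM.

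Among 10 death receptors and decoys tested, 1 rose and 3 fell with TGF-β1. Tnfrsf21, which encodes the death receptor DR6, rose (log2 0.37 ± 0.09, adjusted p = 0.0044). The falls were those of Tnfrsf23 (-0.54 ± 0.11), Tnfrsf22 (-0.29 ± 0.09) and Tnfrsf26 (-0.24 ± 0.08), mouse relatives of the TRAIL receptors; that of Tnfrsf26 did not pass without TGF-β1 replicate 3 (log2 -0.16, adjusted p = 0.0913). Tnfrsf22 and Tnfrsf23, whose products bind TRAIL as decoys, resemble each other in sequence, so reads could have been split between them. At the SIS3 step 3 rose and none fell: Tnfrsf10b, Tnfrsf26 (0.27 ± 0.08) and Tnfrsf11b (0.23 ± 0.06), which encodes osteoprotegerin, a soluble decoy for TRAIL. In SIS3 + TGF-β1 against Ctrl 3 rose and 3 fell. The rises were those of Fas, Tnfrsf21 (0.56 ± 0.09, adjusted p = 7.0e-05) and Tnfrsf11b (0.17 ± 0.06). The falls were those of Tnfrsf23 (9.23 ± 0.55 CPM with SIS3 + TGF-β1 and 16.3 ± 2.0 CPM in Ctrl, log2 -0.82 ± 0.11), Tnfrsf22 (-0.35 ± 0.09) and the TNF receptor gene Tnfrsf1a (-0.25 ± 0.07), which had not passed with TGF-β1 (log2 -0.15, adjusted p = 0.152). Ngfr and Edar were filtered out, at no more than 0.0631 CPM on average in any group.

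**Figure D5:**
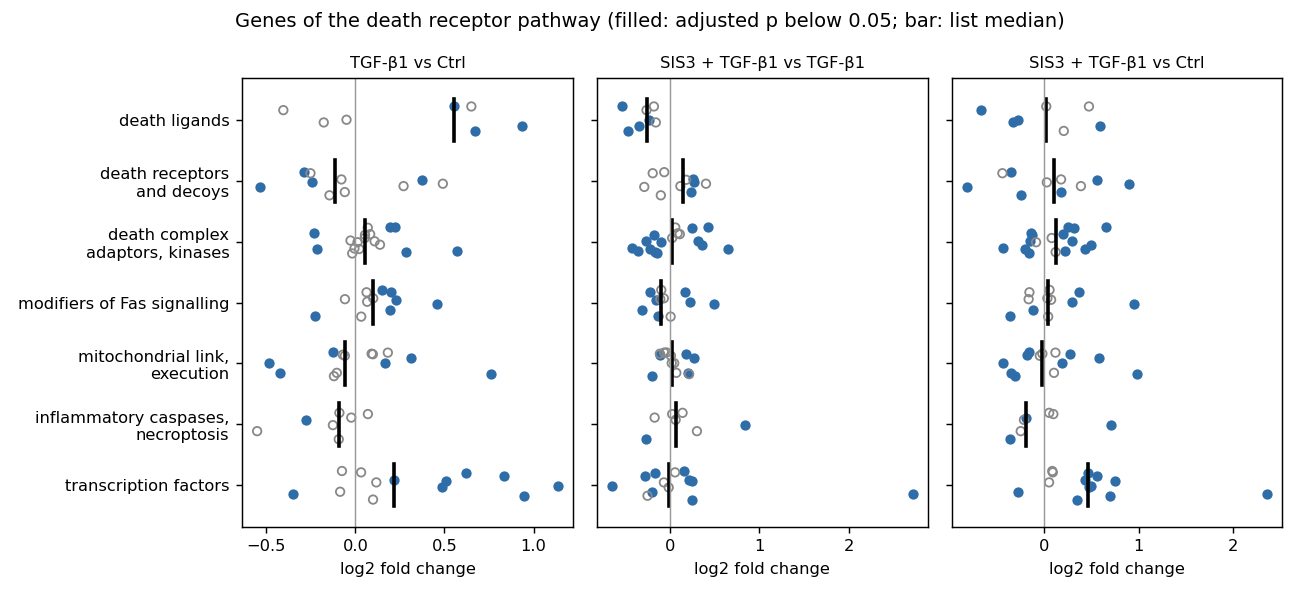
Log2 fold change of each tested gene of the 7 lists in the 3 comparisons, filled where the adjusted p was below 0.05, with a bar at the list median; vertical scatter within a list has no meaning. The list called death ligands has a median of 0.55 with TGF-β1, and all its genes lie below 0 at the SIS3 step (median -0.26). The point far to the right in both comparisons with SIS3 is Ddit3.

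The 17 adaptors and kinases of the death complexes, Casp8 and Cflar included, had 4 rises and 2 falls with TGF-β1. Tradd, the adaptor of the TNF receptor, rose (45.0 ± 1.9 CPM with TGF-β1 and 30.2 ± 0.47 CPM in Ctrl, log2 0.57 ± 0.05), as did Rnf31 (0.28 ± 0.05) and Rbck1 (0.19 ± 0.04), subunits of the linear ubiquitin ligase. The ubiquitin ligase gene Itch (-0.23 ± 0.04) and Tnfaip3 (-0.21 ± 0.06), which encodes the NF-κB brake A20, fell. At the SIS3 step 5 rose and 8 fell. Tnfaip3 rose to 221 ± 16 CPM with SIS3 + TGF-β1, against 141 ± 8.3 CPM with TGF-β1 (log2 0.65 ± 0.06), and the cIAP1 gene Birc2 (0.43 ± 0.05) and the deubiquitinase gene Cyld (0.32 ± 0.05) rose as well. The falls beside Casp8 included Tradd (-0.35 ± 0.05) and Sharpin (-0.26 ± 0.04), a further subunit of the linear ubiquitin ligase. Fadd, the adaptor between receptor and caspase-8, was at 12.1 ± 0.46 CPM with SIS3 + TGF-β1 and 9.47 ± 0.68 CPM with TGF-β1, and was among the genes that rose (log2 0.36). It was named outside the naming rule, after its values were seen. Against Ctrl 8 rose and 6 fell, among them rises of Birc2 (0.66 ± 0.05), Fadd (0.49 ± 0.09) and Tnfaip3 (0.43 ± 0.06) and falls of Casp8, Ripk1 (-0.20 ± 0.04) and Sharpin (-0.15 ± 0.04).

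Of 11 modifiers of Fas signalling tested, 5 rose and 1 fell with TGF-β1, 3 rose and 4 fell at the SIS3 step, and 3 rose and 2 fell against Ctrl. Ptpn13, a phosphatase that binds Fas, rose at each step (log2 0.46 ± 0.09 and 0.50 ± 0.08) and by 0.95 ± 0.09 in all, to 19.8 ± 1.7 CPM with SIS3 + TGF-β1, against 10.2 ± 0.95 CPM in Ctrl. Adam10, a protease that sheds Fas ligand from the cell surface, rose with TGF-β1 (0.19 ± 0.04) and fell at the SIS3 step (-0.31 ± 0.04). The death effector domain gene Pea15a fell with TGF-β1 (-0.23 ± 0.05) and stood lower against Ctrl (-0.36 ± 0.05). Fcmr was filtered out, at 0.167 to 0.247 CPM on average.

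Of 13 genes that link the receptors to mitochondria or carry out the killing, 3 rose and 3 fell with TGF-β1, 3 rose and 2 fell at the SIS3 step, and 4 rose and 5 fell against Ctrl. Among the rises with TGF-β1 was that of Casp2 (68.7 ± 4.5 CPM with TGF-β1 and 55.4 ± 0.46 CPM in Ctrl, log2 0.31 ± 0.05), which encodes a further initiator caspase. Bid, the substrate through which caspase-8 reaches mitochondria, fell (48.7 ± 0.81 CPM with TGF-β1 and 68.2 ± 1.8 CPM in Ctrl, log2 -0.49 ± 0.05, adjusted p = 7.6e-07), as did the cytochrome c gene Cycs (-0.43 ± 0.04). Neither passed at the SIS3 step (log2 0.05 for Bid and 0.07 for Cycs), and both stood below Ctrl with SIS3 + TGF-β1 (-0.44 ± 0.05 and -0.35 ± 0.04). At the SIS3 step Casp2 rose further (0.27 ± 0.05), and the caspase activator gene Apaf1 fell (-0.12 ± 0.04).

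Of 13 transcription factors known to act on promoters of the 6 genes, 7 rose and 1 fell with TGF-β1, 5 rose and 4 fell at the SIS3 step, and 9 rose and 1 fell against Ctrl. The NFAT and FOXO factors known to act on Fasl included Nfatc2 (log2 0.84 ± 0.06), Nfatc1 (0.51 ± 0.04) and Foxo1 (0.62 ± 0.06) among the rises with TGF-β1, in which Fasl itself did not pass. At the SIS3 step, where Fasl fell, Nfatc2 (-0.28 ± 0.06) and Egr3 (-0.65 ± 0.12), an early growth response factor known for Fasl, fell and Nfatc1 rose (0.24 ± 0.04). Against Ctrl, where Fasl was lower, Nfatc1 was higher (0.75 ± 0.04). In the fit without TGF-β1 replicate 3, a library in neither of these groups, Nfatc2 (0.55 ± 0.06), Egr3 (0.49 ± 0.11) and Foxo1 (0.46 ± 0.05) were also higher against Ctrl. Ddit3, which encodes CHOP, a factor known to act on the human DR5 gene, stood at 127 ± 8.6 CPM with SIS3 + TGF-β1, 19.4 ± 2.2 CPM with TGF-β1 and 24.7 ± 1.3 CPM in Ctrl, and rose at the SIS3 step (log2 2.71 ± 0.07, adjusted p = 9.2e-13). Trp53, which encodes p53, a factor known for Fas and Tnfrsf10b, fell at the SIS3 step (-0.19 ± 0.03) and stood below Ctrl (-0.28 ± 0.03). These are transcript levels, and the activity of the factors was not measured. The part of any of them in the results on the 6 genes was not tested.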

How the data were processed

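The authors deposited 1 table of expected counts per gene for the 9 libraries (estimated reads, not scaled for depth), a unit read from the values. Per the submitters' processing notes, the tools named are RSEM, Bowtie2, HISAT2, StringTie, Cufflinks and DESeq2, with builds mm10 and GRCm38; their versions, roles, annotation and strand setting were not given. Counts were rounded and filtered with filterByExpr (minimum count 10, total 15), which left 12212 genes. All 9 libraries were fitted with 1 mean per group by edgeR 4.0.16 (TMM factors, glmQLFit, glmQLFTest, R 4.3.3), and p-values were adjusted by Benjamini-Hochberg over all genes tested. CPM values use TMM factors. An SE is the log2 change divided by the root of F, and 95% intervals use the moderated degrees of freedom. The Cflar to Casp8 ratio had an exact permutation test. The members, lists and motifs were chosen with earlier results of these data, and for the motifs the sequences, known. Named genes are the 6 members, up to 3 rises and 3 falls per list and comparison by smallest p, low list genes, adjacent genes, and the 3 genes with the highest Pearson r per member (mean log2 CPM of at least 1). Windows came from the RefSeq table for GRCm38.p6, which held 5 of the 6 genes. On simulated data, 82% of genes changed 2-fold were recovered in TGF-β1 against Ctrl, 86% at the SIS3 step and 86% in SIS3 + TGF-β1 against Ctrl, each among 12212 genes. Smaller changes were recovered less often. In the same order of comparisons, the shares were 66%, 76% and 76% at 1.5-fold and 54%, 56% and 56% at 1.25-fold. Alternatives used DESeq2 1.42.0 and limma 3.58.1. Some genes this rule names are not reported here.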

Additional observations from a re-analysis of the deposited data

How the results depend on the processing

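The counts of genes past the test stayed within 1.5 times of those reported in all 18 alternatives: 3413 to 4375 for TGF-β1 against Ctrl, 4065 to 5191 for SIS3 + TGF-β1 against TGF-β1 and 5614 to 6868 for SIS3 + TGF-β1 against Ctrl. Of 324 values of the 6 genes under alternatives, 290 kept direction and side of the threshold, 16 lost the call, 8 gained one and 10 changed sign. The sign changed only where no call was made: Casp8 in TGF-β1 against Ctrl ran from -0.032 to 0.024 with 1 library left out; Cflar there ran from -0.0011 to 0.028, and was -0.029 with upper-quartile and -0.011 with no scaling factors; Tnfsf10 in SIS3 + TGF-β1 against Ctrl ran from -0.065 to 0.13, and was -0.015 with upper-quartile factors. The log2 Cflar to Casp8 ratio ran from -0.026 to 0.060 for TGF-β1 against Ctrl, 0.29 to 0.38 for SIS3 + TGF-β1 against TGF-β1 and 0.31 to 0.39 against Ctrl with 1 library left out. The cause of these changes was not tested. Libraries that share a replicate number had deviations from their group means with r of -0.15 to 0.13, against -0.16 to 0.15 for different numbers. These values show no pairing but, with 3 libraries per group, cannot exclude a shared culture. With the replicate number as a block 3942, 4803 and 6346 genes passed. The Cflar call at the SIS3 step then ended (adjusted p = 0.0572), and no other call of the 6 genes changed. Fas rests on only 40 to 110 expected counts per library.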

Other observations

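Of 7 genes of inflammatory caspases and necroptosis tested, none rose and 1 fell with TGF-β1, 1 rose and 1 fell at the SIS3 step, and 1 rose and 2 fell in SIS3 + TGF-β1 against Ctrl. Casp4, which encodes an inflammatory caspase that senses bacterial lipopolysaccharide (caspase-11 in mouse naming), stood at 14.5 ± 0.54 CPM with SIS3 + TGF-β1, 8.12 ± 0.78 CPM with TGF-β1 and 8.86 ± 1.3 CPM in Ctrl (SD, n = 3 each). It rose at the SIS3 step (log2 0.84 ± 0.11, adjusted p = 2.4e-05), where Casp8 fell. Gsdmd, the pore-forming gasdermin that this caspase cleaves, fell at that step (-0.27 ± 0.06, adjusted p = 0.0021). The necroptosis kinase gene Ripk3 fell with TGF-β1 (-0.28 ± 0.09, adjusted p = 0.025; 0.0605 without TGF-β1 replicate 3), and Mlkl, whose product makes the pores of necroptosis, was lower in SIS3 + TGF-β1 than in Ctrl (-0.19 ± 0.07, adjusted p = 0.03). Casp1 and Zbp1 passed in none of the 3 comparisons.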
